A study of Mus musculus with 4 samples.

Results

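The genes described are the 3 subunits of the epithelial sodium channel (Scnn1a, Scnn1b and Scnn1g), the mineralocorticoid receptor gene Nr3c2, and Hsd11b2, whose enzyme inactivates glucocorticoids. Sgk1, a kinase that lengthens the stay of the channel at the cell surface, and Klk1, tissue kallikrein, complete the set. They were taken by symbol, and all 7 were found among the 20672 features of the count matrices. Single-cell RNA was counted as unique molecular identifiers (UMIs) in 4 mouse kidney libraries, of which 21695 cells were used. The series is about maturation stages of the developing kidney.

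There was 1 library of each group. The transplant library came from C57BL/6N embryonic kidneys taken at E12.5 and kept for 12 days in the epididymal fat of a host mouse. The host is C57BL/6N in the sample labels but a NOD immunodeficient mouse in the series' design text. The in situ libraries were E15.5 (ICR), E17.5 (C57BL/6) and P0 (ICR). All 4 are labelled wild type, and the labels do not say how many animals were pooled or which sex they were. P0 held 8181 UMIs of a tdTomato feature and the other 3 libraries 0. No in situ library matches the total age of the transplant, so strain, age, host and site cannot be told apart. With 1 library a group there is no replicate check, no test was made, and every interval below is a 95% interval of counting error only.

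Aldosterone acts on the distal end of the nephron and the collecting duct. It binds the mineralocorticoid receptor in cells where the Hsd11b2 enzyme keeps glucocorticoids away from it, and it raises transcription of the channel and of Sgk1. The channel takes up sodium from the tubular fluid in connecting tubule and principal cells, after proteases have clipped its extracellular loops. Tissue kallikrein is a serine protease of the connecting tubule that releases kinins and is known as 1 of those proteases. Intercalated cells secrete acid or base.

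All 7 genes lie on the plus strand of GRCm38 and are protein coding. Scnn1a (ENSMUSG00000030340) is at chr6:125320659-125344943. Scnn1g (ENSMUSG00000000216, chr7:121734479-121768475) and Scnn1b (ENSMUSG00000030873, chr7:121865038-121918514) are neighbours with 96562 bases between them. Klk1 (ENSMUSG00000063903) is at chr7:44225360-44229618. Nr3c2 (ENSMUSG00000031618) and Hsd11b2 (ENSMUSG00000031891) are at chr8:76899442-77245012 and chr8:105518755-105523988. Sgk1 (ENSMUSG00000019970) is at chr10:21882184-21999903.

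RefSeq promoter windows (GRCm38.p6, 300 bases across each start) were held for 5 of the 7 genes, and the windows of the neighbours Scnn1g and Scnn1b are shown because these genes had the most alike levels of any 2 of the 7. Sgk1 had 6 of the 10 windows. The window of it that is shown was the only one of the 10 with more than 1 copy of TGTTCT (or AGAACA, its other strand). These letters are the core of the glucocorticoid and mineralocorticoid response element. The copies are in capitals.
Scnn1g promoter, chr7:121734229-121734528, plus strand: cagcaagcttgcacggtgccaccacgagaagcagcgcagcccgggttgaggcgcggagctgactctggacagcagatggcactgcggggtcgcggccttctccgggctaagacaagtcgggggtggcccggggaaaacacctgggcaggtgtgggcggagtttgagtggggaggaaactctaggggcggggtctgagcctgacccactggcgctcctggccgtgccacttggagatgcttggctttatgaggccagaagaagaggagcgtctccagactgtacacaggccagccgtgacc
Scnn1b promoter, chr7:121864788-121865087, plus strand: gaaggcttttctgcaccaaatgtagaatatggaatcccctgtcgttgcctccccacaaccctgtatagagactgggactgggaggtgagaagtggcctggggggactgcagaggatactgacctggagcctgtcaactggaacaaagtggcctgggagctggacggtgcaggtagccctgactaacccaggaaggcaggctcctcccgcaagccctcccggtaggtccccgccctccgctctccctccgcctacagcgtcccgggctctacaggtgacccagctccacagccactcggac
Sgk1 promoter, chr10:21993640-21993939, plus strand: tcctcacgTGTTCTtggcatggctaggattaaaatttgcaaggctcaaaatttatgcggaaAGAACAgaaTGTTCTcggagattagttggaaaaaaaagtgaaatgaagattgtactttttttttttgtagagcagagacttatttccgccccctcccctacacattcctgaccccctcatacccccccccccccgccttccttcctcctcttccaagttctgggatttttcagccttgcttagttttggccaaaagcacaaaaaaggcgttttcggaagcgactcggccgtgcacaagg
The Sgk1 window holds 3 copies, the first of them starting at base 9 of the window and the other two facing each other. Of 32851 RefSeq windows of this length, 19.0% hold the letters at least once on either strand. The share with 3 copies was not counted. Neither TGANTCA (in 7.81% of windows) nor AACCNGTT (in 2.09%), searched on both strands, was found in the 3 windows shown.

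Classes are named by their markers and written with "-like", and a level (CPM) is the UMIs of a gene out of every 1000000 UMIs that the class has in its library. These are 3′ counts, not scaled by transcript length, so levels are set side by side between classes and libraries and not between genes. Connecting tubule-like cells numbered 147 in the transplant, against 22, 62 and 81 at E15.5, E17.5 and P0. Principal-like cells numbered 75 in the transplant, against 29, 131 and 196 in situ. Intercalated-like cells numbered 215 in the transplant, against 25 at E17.5 and 62 at P0, and the 7 at E15.5 were not compared. Distal convoluted tubule-like cells numbered 120 in the transplant, against 14, 20 and 37 in situ. The markers did not bear out that name in situ. Slc12a3, the thiazide-sensitive cotransporter of the distal convoluted tubule, was at 3577 CPM in the transplant cells of the class, against 30.3, 90.1 and 62.4 CPM at E15.5, E17.5 and P0. In connecting tubule-like cells it was at 158 CPM in the transplant, against 1033, 1137 and 674 CPM in situ. The in situ cells of the distal convoluted tubule-like cluster are therefore not compared on their own below.

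Principal-like and connecting tubule-like cells of the transplant lay mostly in other clusters than those in situ. Of the 75 transplant principal-like cells, 72 fell in a cluster led by Postn, Tff2, Sprr2f and Smoc2, with no principal marker among its 10 leading genes, while those in situ were in a cluster led by Aqp2 and Aqp4. All 7 principal markers had UMIs in the transplant class, with Aqp2, the vasopressin-regulated water channel, at 3185 CPM, against 6004 CPM at P0. Markers of other classes were counted in it too. The intercalated marker Foxi1 was at 97.0 CPM in the transplant class, against 60.8, 10.8 and 4.31 CPM at E15.5, E17.5 and P0. Atp6v1g3, another intercalated marker, was at 145.5 CPM, against 2.46 CPM at P0. The connecting tubule marker S100g was at 539 CPM, against 158 CPM at P0. Transplant connecting tubule-like cells were in a cluster led by Klk1, Rhcg and S100g, and those in situ mostly in 1 led by Defb1 and S100g. Calb1, a calcium-binding protein of this segment, was at 94.4 CPM in the transplant class, against 556 CPM at P0. Transplant intercalated-like cells were in a cluster led by Klk1, with Atp6v1g3 and Foxi1 among its leading genes. They also carried the connecting tubule gene S100g at 10250.4 CPM, against 7091 CPM at E17.5 and 1469.5 CPM at P0. Median UMIs were 15675 in the transplant intercalated-like cells and 17918 in the principal-like cells, 2.50 and 2.86 times the median of their library. Whether pairs of cells or free RNA add to these levels was not tested.

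Scnn1b and Scnn1g, the beta and gamma subunits, marked the connecting tubule and collecting duct in every library. Both were higher in the transplant than at P0 in connecting tubule-like, principal-like and intercalated-like cells. In all 11 classes with at least 20 UMIs and no zero count, the transplant level of Scnn1b lay above P0 beyond the interval. These include endothelium-like cells, which should lack the channel, and loop of Henle-like cells, whose transplant level is read as background below. In such classes the ratio may compare background levels and is not read as a rise of Scnn1b. Over all 11 classes the ratio ran from 2.34 in connecting tubule-like to 11.1 in intercalated-like cells. In connecting tubule-like cells Scnn1b was at 831 CPM [786, 879] in the transplant, against 519 [458, 585], 349 [297, 408] and 356 [310, 406] CPM at E15.5, E17.5 and P0. The transplant level was 2.34 times that of P0 [2.02, 2.71], and the in situ levels of E17.5 and P0 lay within each other's intervals. The P0 class held more Slc12a3 than the transplant class (674 against 158 CPM). Transplant distal convoluted tubule-like cells, with Slc12a3 at 3577 CPM, had Scnn1b at 130 CPM, Scnn1g at 23.2 CPM and Hsd11b2 at 215 CPM. The part of this cell mix in the connecting tubule-like ratios of these 3 genes was not tested. Principal-like cells had Scnn1b at 490.4 CPM [454, 529] in the transplant, against 173 [145, 205], 208 [182, 237] and 204 [183, 227] CPM. That is 2.40 times P0 [2.10, 2.75], with the 3 in situ intervals overlapping.

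Scnn1g followed its neighbour. In principal-like cells Scnn1g was at 191 CPM in the transplant, against 122, 113 and 98.6 CPM at E15.5, E17.5 and P0, a ratio to P0 of 1.94 [1.58, 2.38]. Its level in connecting tubule-like cells was 272 CPM in the transplant, against 258, 213 and 132 CPM, so the transplant and E15.5 were close and P0 was the lowest (2.06-fold [1.62, 2.65] over P0). The ratio of the transplant to E17.5 was 1.28 there and 0.960 and 0.961 under 2 other clustering settings.

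Intercalated-like cells were different mixes of cells in the libraries. All 215 of the transplant lay in 1 cluster with 20 of the 62 at P0, and the other 42 at P0 lay in a cluster led by Atp6v1g3 and Aqp6 that held no transplant cell. Scnn1b was at 598 CPM in the transplant, against 185 CPM at E17.5 and 54.0 CPM at P0, and the transplant over P0 ratio was 11.1 [7.86, 16.1]. Scnn1g was at 225 CPM in the transplant, against 133 and 13.1 CPM, a ratio to P0 of 17.2 [8.69, 39.98]. In the 17 transplant and 22 P0 cells of this class with at most 4 UMIs of S100g, Aqp2 and Aqp3 together, a limit set after seeing the data, Scnn1b was at 126 CPM in the transplant and 65.4 CPM at P0, a ratio of 1.93 from 16 and 11 UMIs.

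**Figure D1:**
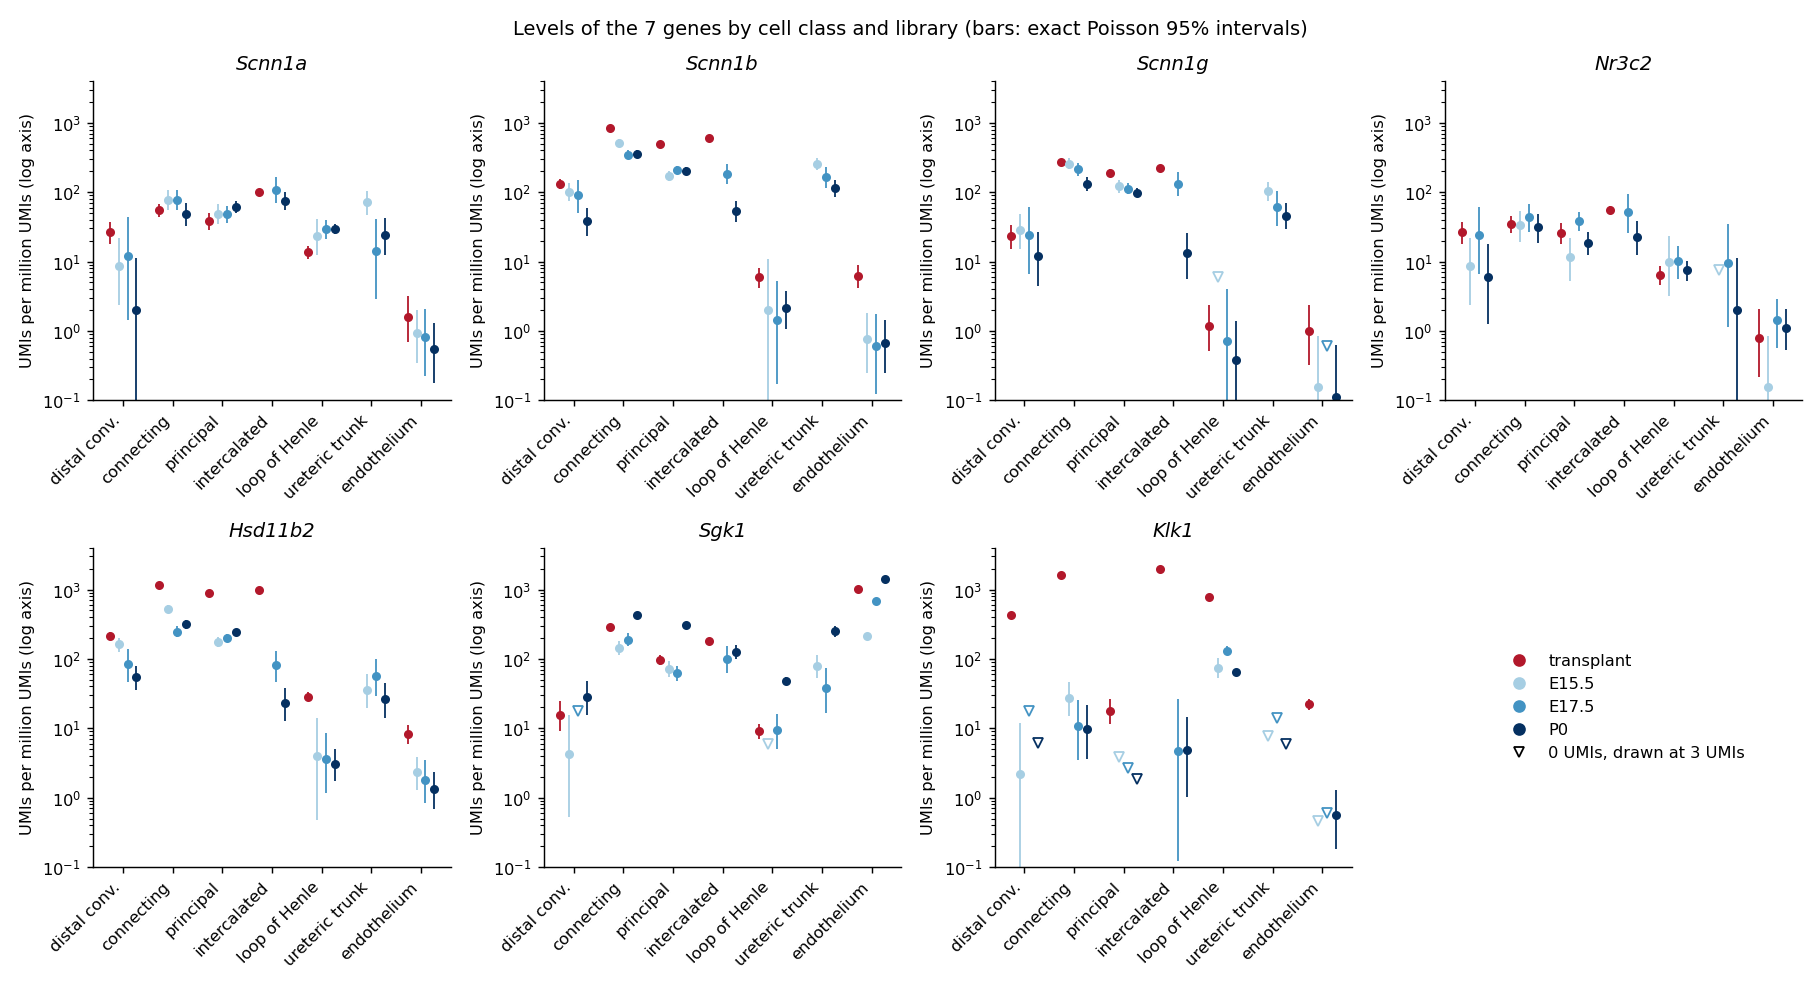
Level of each of the 7 genes (CPM, log axis) in 7 cell classes, with 1 point per library and exact Poisson 95% intervals; open triangles are classes with 0 UMIs, drawn at the level 3 UMIs would give. The in situ points of the distal convoluted tubule-like class are of cells low in Slc12a3. Scnn1b and Scnn1g peak in connecting tubule-like cells of every library, Sgk1 peaks in endothelium-like cells, and Klk1 is highest in transplant intercalated-like cells (1967 CPM).

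The order of named classes for Scnn1b at P0 was connecting tubule-like, principal-like, ureteric trunk-like (114 CPM), intercalated-like, urothelium-like (31.5 CPM) and ureteric tip-like (26.6 CPM). The first 4 were apart beyond their intervals. Unnamed clusters led by Gdf15 and by Spint4, left out of this order, held 255 and 220 Scnn1b UMIs at P0. Principal-like cells held 331 and connecting tubule-like cells 218. In the transplant the order was connecting tubule-like, intercalated-like, principal-like and distal convoluted tubule-like (130.4 CPM), each apart from the next, and no other named class with at least 10 cells passed 9.40 CPM. Principal-like over intercalated-like, it was 0.820 [0.750, 0.896] in the transplant, against 1.12 [0.798, 1.62] at E17.5 and 3.78 [2.64, 5.58] at P0.

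Cells were also thinned to 3000 UMIs and counted. Scnn1b was found in 67.6% of 74 transplant principal-like cells [55.7, 78.0], against 38.8% of 178 at P0 [31.6, 46.3]. In endothelium-like cells, which should lack the channel, it was found in 2.14% of 468 transplant cells and 0.144% of 694 P0 cells. Unthinned, the shares were 98.7% and 65.3% in principal-like cells (median 17918 UMIs in the transplant and 7660 at P0) and 5.44% and 0.761% in endothelium-like cells (6802 and 8691 UMIs). Thinning left out 1 transplant and 18 P0 principal-like cells, and 102 and 94 endothelium-like cells.

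Scnn1a, the alpha subunit, did not share this pattern. In principal-like cells it was at 38.8 CPM [29.0, 50.9] in the transplant, against 49.2, 47.8 and 61.6 CPM [50.1, 74.9] at E15.5, E17.5 and P0. The transplant over P0 ratio was 0.630 [0.442, 0.889], but 1.78 when classes were set by marker UMIs in each cell. Connecting tubule-like cells had it at 54.9 CPM in the transplant, against 78.3, 78.1 and 48.9 CPM, and the ratio to P0, 1.12 [0.731, 1.77], did not leave 1. In intercalated-like cells it was at 100.1 CPM in the transplant, against 109 CPM at E17.5 and 75.3 CPM at P0, again with an interval across 1 (1.33 [0.976, 1.85]).

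Scnn1a also reached beyond the collecting system, into loop of Henle-like cells, where the other subunits were near 0. There it was at 13.6 CPM [10.97, 16.7] in the transplant, against 23.7, 29.6 and 29.6 CPM [25.1, 34.7], a ratio to P0 of 0.459 [0.351, 0.599]. Scnn1b in these cells was at 5.92 CPM in the transplant, which is below its 6.22 CPM in transplant endothelium-like cells and is read as background.

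Among the UMIs of the 3 subunits, the share of Scnn1a was lower in the transplant than at P0 in the 3 classes that follow. In principal-like cells it was 5.39% of 965 subunit UMIs in the transplant [4.05, 7.01], against 14.3%, 12.96% and 16.9% [13.98, 20.2] at E15.5, E17.5 and P0. The transplant minus P0 was -11.5 percentage points, and -4.24 with classes set by marker UMIs. In connecting tubule-like cells it was 4.74% [3.79, 5.85] in the transplant, against 9.15%, 12.2% and 9.12% [6.24, 12.8]. In intercalated-like cells it was 10.8% in the transplant, against 25.6% at E17.5 and 52.9% of 87 UMIs at P0 [41.9, 63.7]. Of these P0 UMIs, 70 were in the cluster that held no transplant cell, with a share of 61.4% [49.0, 72.8]. In the cluster of the transplant cells the share at E17.5 was 15% of 40 UMIs [5.71, 29.8], and P0 had under 20 subunit UMIs. The class difference is therefore also one of cell mix. Among named P0 classes with at least 87 subunit UMIs, the share ran from low to high over ureteric tip-like (5.16% [2.25, 9.92]), connecting tubule-like, ureteric trunk-like (13.04% [6.93, 21.7]), principal-like, intercalated-like and loop of Henle-like cells. Neighbours among the first 4 had overlapping intervals.

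**Figure D2:**
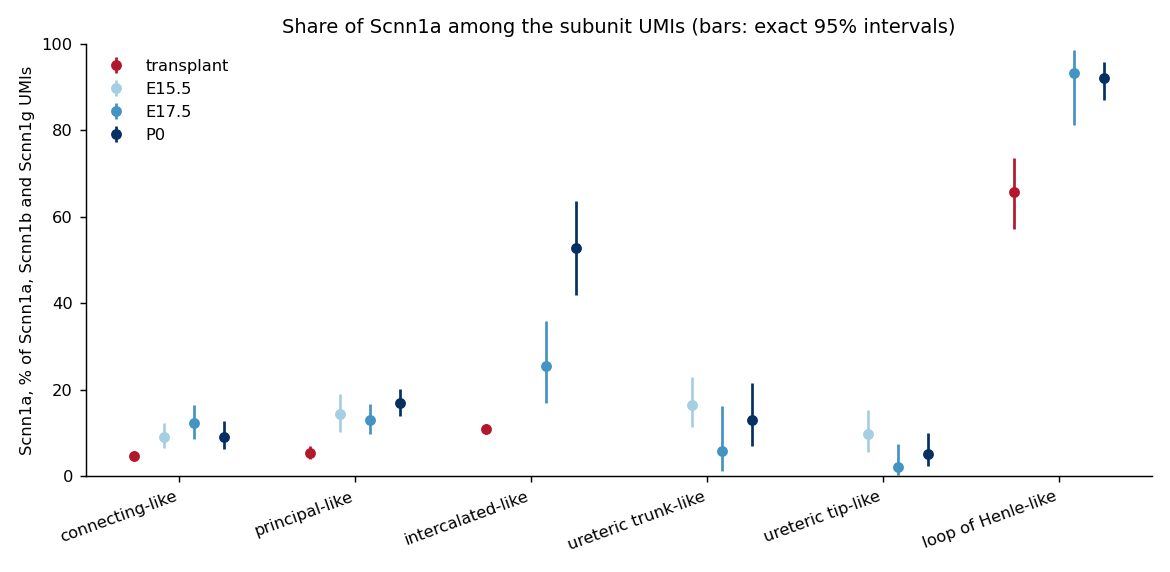
Share of Scnn1a among all Scnn1a, Scnn1b and Scnn1g UMIs (percent) by cell class, with 1 point per library of at least 20 subunit UMIs and exact Clopper-Pearson 95% intervals. The transplant principal-like point (5.39%) lies under the 3 in situ points, and the loop of Henle-like point of the transplant includes Scnn1b UMIs at the background level.

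Nr3c2, the receptor, was counted with few UMIs, from 9 to 52 in any library in connecting tubule-like and principal-like cells. Connecting tubule-like cells had it at 34.8 CPM [26.0, 45.7] in the transplant, against 33.3, 43.4 and 31.0 CPM [18.7, 48.4] at E15.5, E17.5 and P0. Principal-like cells had it at 26.1 CPM in the transplant, against 11.6, 37.9 and 18.5 CPM, with a transplant over P0 ratio of 1.41 [0.843, 2.38]. The interval that left 1 was that of P0 over E17.5 (0.488 [0.295, 0.798]). Intercalated-like cells had 55.7 CPM [48.1, 64.1] in the transplant, against 52.3 CPM at E17.5 and 22.9 CPM at P0, 2.43 times P0 [1.41, 4.53].

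Hsd11b2, the enzyme that guards the receptor, was higher in the transplant than in each in situ library in connecting tubule-like, principal-like and intercalated-like cells. In principal-like cells it was at 902 CPM [852, 955] in the transplant, against 175, 200.3 and 245 CPM [222, 271] at E15.5, E17.5 and P0, or 3.68 times P0 [3.28, 4.13]. Its level in connecting tubule-like cells was 1163 CPM in the transplant, against 532, 247 and 316.5 CPM, or 3.67 times P0 [3.17, 4.28]. In intercalated-like cells it was at 995 CPM in the transplant, against 80.8 CPM at E17.5 and 22.9 CPM at P0, or 43.4 times P0 [25.9, 79.5]. In the cells of that class with at most 4 UMIs of S100g, Aqp2 and Aqp3, the levels were 63.2 CPM in the transplant and 17.8 CPM at P0, from 8 and 3 UMIs.

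Hsd11b2 was not limited to the distal nephron. Stroma-like cells had 78.7 CPM [70.2, 87.9] in the transplant, against 20.03, 10.8 and 8.80 CPM at E15.5, E17.5 and P0. Endothelium-like cells had 8.23 CPM in the transplant, against 2.31, 1.82 and 1.33 CPM. As for Scnn1b and Klk1, the levels in this class are read as background. In nephron progenitor-like cells in situ Hsd11b2 was at 41.4 CPM at E15.5, 21.6 CPM at E17.5 and 14.9 CPM at P0, so E15.5 was the highest. The distal and collecting classes pooled were above all other named cells 45.1-fold in the transplant, against 4.61-fold, 12.1-fold and 13.9-fold at E15.5, E17.5 and P0. The pool includes ureteric tip-like cells, 7 in the transplant, against 120, 168 and 256 in situ. The other named cells include nephron progenitor-like cells, 3 in the transplant, against 795, 636 and 951 in situ. These pooled ratios therefore also depend on which cells each library held. From E15.5 to P0 the in situ levels parted by class. P0 over E15.5 was 1.40 [1.15, 1.72] in principal-like and 0.595 [0.492, 0.718] in connecting tubule-like cells, and the second became 1.99 with classes set by marker UMIs.

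**Figure D3:**
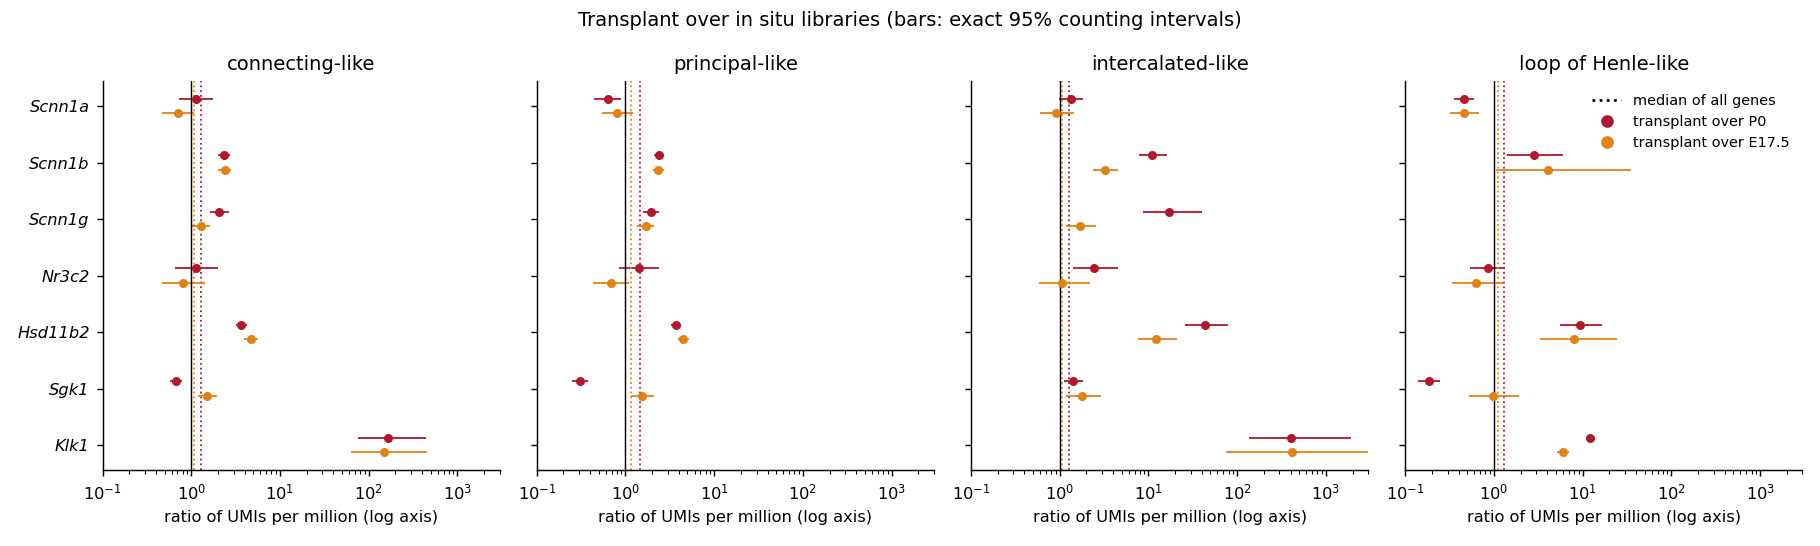
Ratio of levels (log axis) in the transplant over P0 and over E17.5 for each gene in 4 cell classes, with exact 95% counting intervals and, as dotted lines, the median ratio over all genes; ratios with 0 UMIs on a side or under 20 UMIs in all are not drawn. Against P0, Klk1 lies farthest right in every class but principal-like, where it is not drawn, and Sgk1 lies left of 1 against P0 in connecting tubule-like, principal-like and loop of Henle-like cells.

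Levels of all genes were shifted as well. The median ratio of transplant over P0 was 1.47 in principal-like, 1.29 in connecting tubule-like and 1.27 in intercalated-like cells (0.55, 0.37 and 0.34 on the log2 scale). Divided by it, Hsd11b2 was 2.51 and Scnn1b 1.64 in principal-like cells, and Hsd11b2 was 2.84 and Scnn1b 1.81 in connecting tubule-like cells. Scnn1a then lay on the other side of 1 in connecting tubule-like cells (0.868), as did Nr3c2 in connecting tubule-like (0.869) and principal-like cells (0.964). The median was 0.767 for P0 over E15.5 in principal-like and 0.819 in connecting tubule-like cells.

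Counts of the genes past a 2-fold ratio, among those with at least 50 UMIs over both libraries, put this beside the background. For transplant over P0 in connecting tubule-like cells, 4 of 7 were at least 2-fold higher (Scnn1b, Scnn1g, Hsd11b2, Klk1) and 0 lower, against 17.4% and 4.65% of all 5702 genes. Relative to the median ratio the split over all genes was 6.87% and 9.52%, and of the 7 genes Hsd11b2 and Klk1 stayed past 2-fold. In principal-like cells 2 of 6 were higher (Scnn1b and Hsd11b2) and 1 lower (Sgk1), against 23.1% and 5.8% of 6747 genes. There the split relative to the median was 7.96% and 13.3%, with Hsd11b2 past 2-fold higher and Sgk1 and Scnn1a past 2-fold lower. In intercalated-like cells 5 of 7 were higher (Scnn1b, Scnn1g, Nr3c2, Hsd11b2, Klk1) and 0 lower, against 21.3% and 4.68% of 8058 genes, or 11.03% and 9.08% relative to the median, where Nr3c2 was at 1.92 and the other 4 stayed past 2-fold.

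Between the youngest and the oldest in situ libraries, Sgk1 alone passed 2-fold in connecting tubule-like and principal-like cells among the genes with at least 50 UMIs. Nr3c2 and Klk1 had fewer UMIs and were not counted. Klk1 was at 0.357 in connecting tubule-like cells, from 6 UMIs at P0 and 14 at E15.5. For P0 over E15.5 in connecting tubule-like cells 1 of 5 was higher and 0 lower, against 7.18% and 11.1% of 3386 genes (11.1% and 5.02% relative to the median). Principal-like cells again had 1 of 5 higher and 0 lower, against 8.35% and 14.2% of 5630 genes (13.7% and 5.47%). Scnn1b over the same step was 1.18 [0.959, 1.45] in principal-like cells and 0.686 [0.571, 0.824] in connecting tubule-like cells, and the second became 2.98 with classes set by marker UMIs. Scnn1g was 0.810 [0.624, 1.06] in principal-like cells, or 1.06 relative to the median.

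Sgk1 was first of all an endothelial transcript here. Endothelium-like cells had 1022 CPM [994, 1050.3] in the transplant, against 212 [201, 224], 678 [655, 701] and 1426 [1401, 1450.4] CPM at E15.5, E17.5 and P0, and held 54.4% of the Sgk1 UMIs of the transplant and 63.0%, 76.9% and 60.9% of those in situ. At P0 the order after endothelium-like cells was connecting tubule-like (424 CPM), principal-like (313 CPM), ureteric trunk-like (250.4 CPM), urothelium-like (216 CPM) and mural-like cells (147 CPM). Connecting tubule-like and principal-like cells were apart beyond their intervals, and principal-like and ureteric trunk-like cells overlapped.

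In principal-like cells Sgk1 was at 96.3 CPM [80.4, 114] in the transplant, against 72.5 CPM [54.7, 94.1] at E15.5, 62.3 CPM at E17.5 and 313 CPM [286, 341] at P0. P0 was 4.32 times E15.5 [3.27, 5.80] and 5.03 times E17.5 [3.90, 6.56], and the transplant was 0.308 times P0 [0.252, 0.374]. That ratio became 0.921 with classes set by marker UMIs and 0.529 with the list genes kept in the clustering, neither past 2-fold. Its level in connecting tubule-like cells was 287 CPM in the transplant, against 143, 189 and 424 CPM, or 0.677 times P0 [0.579, 0.793]. The higher P0 level was not particular to the aldosterone-sensitive classes. In all 12 classes with at least 20 UMIs and no zero count, P0 over E15.5 lay above 1 beyond the interval, from 2.97 in connecting tubule-like to 28.4 in nephron progenitor-like cells.

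Genes that respond to dissociation differed between the libraries too. The summed level of a list of 23 such genes (Fos, Jun, Atf3 and others, at least 19 of them counted in each class) ranged over classes from 4647 to 19139 CPM in the transplant, against 239 to 6725 CPM at E15.5, 6003 to 24876 CPM at E17.5 and 6822 to 20934 CPM at P0. In principal-like cells it was 13480 CPM in the transplant, against 6440, 24876 and 16626 CPM. In endothelium-like cells it was 12624 CPM in the transplant, against 2003, 9749 and 16136 CPM. Connecting tubule-like cells had 8721 CPM in the transplant, against 4278, 10689 and 18620 CPM. P0 was the highest library for both the list and Sgk1 in endothelium-like and connecting tubule-like cells. In principal-like cells P0 was highest for Sgk1 and E17.5 for the list. For P0 over E15.5 the list had 14 of 22 genes at least 2-fold higher and 1 lower in principal-like cells, and 16 of 21 higher and 0 lower in connecting tubule-like cells, against 8.35% and 14.2%, and 7.18% and 11.1%, of all genes. The part of the stress genes in the Sgk1 difference was not tested.

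**Figure D4:**
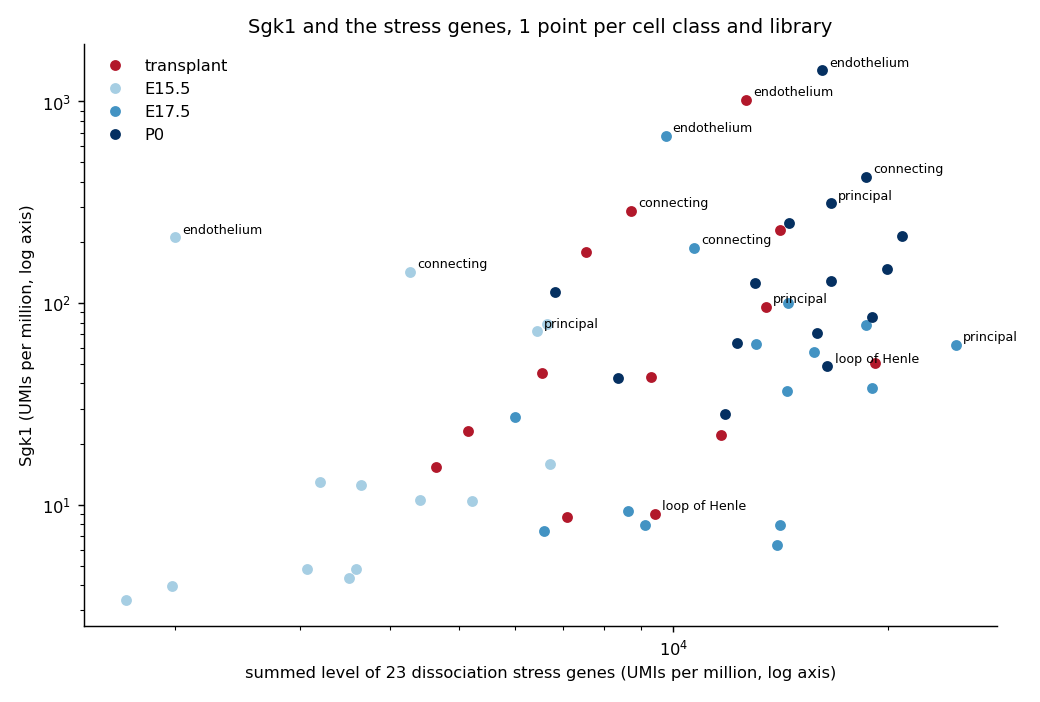
Level of Sgk1 (CPM, log axis) against the summed level of 23 dissociation stress genes (CPM, log axis), with 1 point per cell class and library where Sgk1 had UMIs. Most E15.5 points lie at the left. E17.5 principal-like cells, with 24876 CPM of stress genes, have 62.3 CPM of Sgk1. P0 endothelium-like cells, with 16136 CPM of stress genes, have 1426 CPM of Sgk1.

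Klk1 had the largest ratios of the 7. In the transplant it was at 1967 CPM [1921, 2014] in intercalated-like, 1603 CPM [1539, 1668] in connecting tubule-like, 789.8 CPM in loop of Henle-like and 429 CPM in distal convoluted tubule-like cells. These transplant levels were apart by counting error alone, which leaves out the uneven spread of Klk1 over cells given below. In situ it was highest in loop of Henle-like cells, at 75.1 CPM [53.1, 103], 132 CPM [113, 152] and 64.6 CPM [57.9, 71.9] at E15.5, E17.5 and P0, with 27.4, 10.8 and 9.79 CPM in connecting tubule-like cells from 14, 5 and 6 UMIs. The 17.9 CPM in transplant principal-like cells was at or below the 22.3 CPM of transplant endothelium-like cells and is read as background.

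Over P0 the transplant ratio was 401 [137, 1943] in intercalated-like cells (3 UMIs at P0), 164 [75.1, 447] in connecting tubule-like cells and 12.2 [10.9, 13.7] in loop of Henle-like cells. Over E17.5 it was 414, from 1 UMI at E17.5, 148 and 5.99 in the first 3 classes. Thinned to 3000 UMIs, 47.5% of 440 transplant loop of Henle-like cells held a Klk1 UMI, against 11.5% of 485 at P0, beside 7.69% and 0.432% in endothelium-like cells. Unthinned the loop of Henle-like shares were 60.9% and 17.7%, at median depths of 11146 and 8822 UMIs, with 15.8% and 0.635% in endothelium-like cells.

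The Klk1 level came from part of the cells. Of 147 transplant connecting tubule-like cells, 86 had no Klk1 UMI, and the 15 cells with the most UMIs held 92.9% of them, up to 536 in a cell. Of 215 intercalated-like cells 67 had none, and the top 22 held 71.3%, up to 768 in a cell. Of 507 loop of Henle-like cells 198 had none and the top 51 held 63.3%. At P0 the highest count in a cell was 1 in connecting tubule-like and intercalated-like cells and 32 in loop of Henle-like cells.

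**Figure D5:**
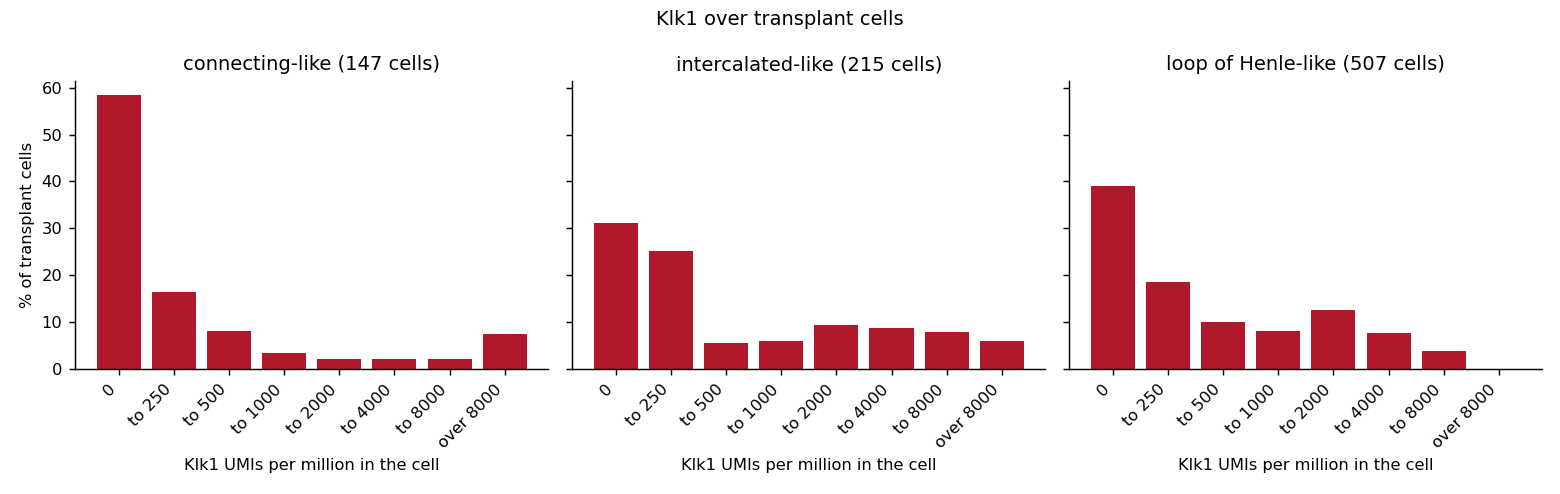
Percent of transplant cells of 3 classes (147 connecting tubule-like, 215 intercalated-like and 507 loop of Henle-like cells) by the Klk1 level of the single cell (CPM). The tallest bar of each class is that without Klk1, and 12 connecting tubule-like cells lie over 5000 CPM.

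Cells with and without Klk1 differed in others of the 7 genes. Scnn1a was at 151 CPM [105, 211] in the 25 transplant connecting tubule-like cells with at least 5 Klk1 UMIs, against 32.5 CPM [21.6, 46.9] in the 86 with none. In intercalated-like cells it was at 151 CPM [132, 172] in 88 such cells, against 50.3 CPM [37.2, 66.5] in 67 with none. Scnn1b was at 705 CPM with Klk1 and 893 CPM without in connecting tubule-like cells, at 532 and 578 CPM in intercalated-like cells, and at 240.4 CPM [181, 313] and 98.6 CPM [71.1, 133] in distal convoluted tubule-like cells. Hsd11b2 was at 838 CPM [791, 886] with Klk1 and 996 CPM [935, 1061] without in intercalated-like cells. Slc12a3 was at 820 CPM with Klk1 and 56.5 CPM without in intercalated-like cells, and Aqp2 at 74.4 and 787 CPM. Median UMIs were 7739 with Klk1 and 8019 without in connecting tubule-like cells, 16553 and 13144 in intercalated-like cells, and 12452.5 and 6294 in distal convoluted tubule-like cells. These groups were drawn after seeing the data.

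Klk1 has close relatives whose reads may be shared with it. The 13 Klk1b genes of the list had 286 UMIs beside 6857 Klk1 UMIs in transplant intercalated-like cells, 98 beside 2393 in connecting tubule-like cells and 227 beside 5341 in loop of Henle-like cells. How reads of near-identical genes were assigned is not given in the sources used here.

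Lists of other genes of the pathway were counted in the same way, for transplant over P0. Beside each count stands the median log2 ratio of the list, to be read against the median over all genes with 50 UMIs, which was 0.46 in principal-like, 0.33 in connecting tubule-like and 0.32 in intercalated-like cells. Of all genes, 23.1% were 2-fold higher and 5.8% lower in principal-like cells, 17.4% and 4.65% in connecting tubule-like cells, and 21.3% and 4.68% in intercalated-like cells, so counts such as 2 of 12 or 2 of 9 in principal-like cells are no more than that share. Of the genes that cleave, protect or retrieve the channel, 2 of 12 were at least 2-fold higher and 0 lower in principal-like cells (median 0.48). Furin and St14 (matriptase), proteases of the channel's activation, were both at 2.52 there. Connecting tubule-like cells had 3 of 12 higher and 0 lower (median 0.52), among them Prss8 (prostasin, a channel-activating protease) at 2.67 [1.90, 3.85], from 170 CPM in the transplant and 63.6 CPM at P0, and its inhibitor Spint1 at 2.75. Ppp2ca, a phosphatase subunit, was at 0.520 and 0.704 in the 2 classes. Intercalated-like cells had 4 of 12 higher and 0 lower (median 0.42).

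Among kinases of the pathway, 2 of 9 were at least 2-fold higher and 0 lower in principal-like cells (median 0.33), namely Wnk1 (2.32) and Wnk4 (2.09), which regulate sodium and potassium transport. Connecting tubule-like cells had 0 of 9 higher and 1 lower (median -0.09), with Wnk1 at 0.430. Intercalated-like cells had 4 of 13 higher and 0 lower (median 0.47), led by Klhl3, which targets WNK kinases for degradation, at 5.08 [2.99, 9.38].

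Of the partner channels and pumps, Slc12a3, Slc26a4, Aqp2, Aqp3, Aqp4, Avpr2 and Fxyd4 are also class markers and were kept in the clustering. Their ratios therefore depend in part on which cells each class took in. From this list, 1 of 9 was higher and 0 lower in principal-like cells (median 0.12). Kcnj16, a basolateral potassium channel, was at 3.63 there, while Aqp2 was at 0.530 and Aqp3 at 0.537. Connecting tubule-like cells had 3 of 10 higher and 1 lower (median 0.43). Fxyd4, a regulator of the sodium pump known to respond to aldosterone, was at 3.06 and Slc12a3 at 0.235 [0.199, 0.276]. Intercalated-like cells had 10 of 13 higher and 1 lower (median 1.73). Slc12a3 was at 58.9 [22.9, 216] there and Slc26a4, the anion exchanger pendrin, at 0.220 [0.161, 0.303].

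Among steroid receptors and their handling, 0 of 8 were 2-fold higher and 1 lower in principal-like cells (median 0.16), 1 of 7 higher and 0 lower in connecting tubule-like cells (0.55), and 1 of 10 higher and 0 lower in intercalated-like cells (0.33). Nr3c1, the glucocorticoid receptor, was at 1.89 [1.29, 2.85] in connecting tubule-like and 2.80 [1.82, 4.53] in intercalated-like cells. Of the corticosteroid response genes, principal-like cells had 1 of 10 higher and 6 lower (median -1.33), with Errfi1, a feedback inhibitor of the EGF receptor, at 0.183 [0.141, 0.235] and the metallothionein Mt1 at 0.256. Connecting tubule-like cells had 0 of 8 higher and 4 lower (median -0.83), with Errfi1 at 0.319 and Mt1 at 0.362, and intercalated-like cells 2 of 11 higher and 2 lower (median -0.49). The stress genes stood at 0 of 22 higher and 11 lower (median -1.17) in connecting tubule-like, 4 of 23 higher and 6 lower (0.08) in principal-like and 1 of 21 higher and 8 lower (-0.71) in intercalated-like cells. Of the kallikrein, kinin and renin genes few could be counted. They were 1 of 2 higher in connecting tubule-like cells, 0 of 1 in principal-like cells and 3 of 4 in intercalated-like cells, where the Klk1 relative Klk1b5 was at 8.94.

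For P0 over E15.5 in principal-like cells the corticosteroid response list had 5 of 10 genes higher and 2 lower (median 1.20, against -0.27 over all genes), with Errfi1 at 3.49, Klf9 at 3.19, Hif3a at 0.180 and Mt2 at 0.152. Partner channels had 2 of 9 higher and 0 lower (median 0.54), the water channels Aqp2 at 18.3 [16.1, 20.8] and Aqp3 at 5.19, both also class markers. Steroid receptors had 1 of 8 higher and 0 lower (median -0.49), kinases 0 of 8 and 1 (0.01), and cleavage genes 1 of 12 and 0 (0.11), beside 8.35% and 14.2% of all genes. Connecting tubule-like cells over the same step had 3 of 7 corticosteroid response genes higher and 0 lower (median 0.58, against -0.22 over all genes). Partner channels there had 2 of 10 higher and 3 lower (median -0.60), with the class marker Fxyd4 at 8.50. Steroid receptors had 0 of 4 in either direction (median -0.35), kinases 0 of 6 (-0.69), and cleavage genes 0 of 10 higher and 1 lower (-0.39), beside 7.18% and 11.1% of all genes.

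The genes most like each of the 7 were taken over the 50 pairs of class and library with at least 30 cells, 17 classes in 4 libraries, by Pearson's r of log2(CPM + 10). The pairs share libraries and depth, so r is a description. Scnn1b and Scnn1g correlated with each other at 0.981, and both had the water channel Aqp3, the ammonia transporter Rhcg and Plppr1 as their nearest other genes (0.936 to 0.958). Scnn1a was nearest to Nr3c2 among the 7 (0.938) and to Tmem117 (0.923) outside them. Hsd11b2 correlated with Scnn1b at 0.916 and with Atp12a, a proton pump, at 0.919. Klk1 was nearest to the channel genes Scn4b (0.861) and Kcnj1 (0.824), and Sgk1 to the endothelin receptor Ednrb (0.750) and the caveolin Cav2 (0.736). Sgk1 correlated with Scnn1a, Scnn1b, Scnn1g and Nr3c2 at only 0.297 to 0.344.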

How the data were processed

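The 4 libraries were read as the UMI counts per gene and barcode that the authors deposited after cell calling. Cell Ranger 3.1.0 and GRCm38 are named in the submitters' processing notes. Per the file headers, the E17.5 and transplant matrices come from that version, and those of E15.5 and P0 from 3.0.2. Strand and shared-read settings are not given in the sources used here. A joined matrix was not used.

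UMI totals were 57855356 (transplant), 92387054 (E15.5), 42430540 (E17.5) and 99068204 (P0), and 132, 71, 101 and 122 of the barcode sequences occur in another library. Cells needed 500 genes and at most 20% mitochondrial UMIs, and the cells with the top Scrublet scores were removed at 0.8% per 1000 cells. This left 6268, 3463, 4396 and 7568 cells with median UMIs of 6269.5, 22589, 7199 and 9885. Clustering (scanpy 1.11.5, python-igraph 0.11.9) used 2000 variable genes, 40 components, 20 neighbours and Leiden resolution 1.5, without the 7 genes, list genes other than class markers, mitochondrial, ribosomal protein, globin, Xist and Y-linked genes. The 2882 distal and collecting cells were split again at resolution 1 into 18 clusters. A class name needed 3 markers at 2 times their level in other cells. Scaling within libraries in that split, breaking ties between names by leading genes and leaving low-UMI clusters unnamed were decided after seeing clusters.

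Levels have exact Poisson, ratios exact conditional binomial and shares Clopper-Pearson 95% intervals, which cover counting error only (scipy 1.17.1). A ratio was counted when past 2-fold with 50 UMIs over both libraries, and the median ratio was taken over genes with 20 UMIs. The 7 genes and the lists were chosen with earlier results of these data known. Named list genes are from the 2 highest and 2 lowest ratios by the interval bound nearest 1, and like genes are the 3 highest correlations. Other settings are in the closing section. The calculation was tested on simulated counts with counting error only, so that test does not cover spread between cells or libraries.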

Additional observations from a re-analysis of the deposited data

Results flagged for a closer look

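For Hsd11b2, P0 over E17.5 was 1.22 [1.04, 1.45] in principal-like cells and 0.690 in nephron progenitor-like cells, with intervals on opposite sides of 1. For Sgk1, transplant over P0 was 1.57 in mural-like cells and 0.185 [0.138, 0.246] in loop of Henle-like cells, also on opposite sides. Neither difference between classes was itself tested, since each group is 1 library.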

How the results depend on the processing

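Of 622 values under other settings for 72 results, 498 moved by less than their counting interval, 116 moved further and 8 turned to the other side of 1. A turn was counted only where the reported interval left 1, so other crossings of 1 are among the 498 and 116. The cause was not tested. With classes set by marker UMIs in each cell, transplant over P0 in principal-like cells was 1.78 for Scnn1a (turned), 3.71 for Scnn1b, 6.94 for Hsd11b2 and 0.921 for Sgk1, and the Scnn1a share difference was -4.24 points, against -11.5. In the same setting P0 over E15.5 was 1.55 for Scnn1b and 6.29 for Sgk1 in principal-like cells, and 2.98 for Scnn1b and 1.99 for Hsd11b2 in connecting tubule-like cells (both turned, 70 and 13 cells). Scnn1b was then 6.85 for transplant over P0 in intercalated-like cells and 2.002 for principal-like over intercalated-like at P0. With at least 1000 genes per cell, transplant over P0 in principal-like cells was 0.947 for Scnn1a, 2.78 for Scnn1b and 4.30 for Hsd11b2. Divided by the median ratio, it was 0.430, 1.64 and 2.51 for these and 0.210 for Sgk1, Klk1 in loop of Henle-like cells was 9.54, and Scnn1b for P0 over E15.5 in principal-like cells was 1.53. As a mean over cells Scnn1a was 0.436 and Klk1 8.72, and with at most 10% mitochondrial UMIs Klk1 was 18.4. With list genes kept in the clustering, transplant over P0 in principal-like cells was 3.07 for Scnn1b and 0.529 for Sgk1. With each library clustered alone, P0 over E15.5 in principal-like cells was 1.47 for Scnn1b and 6.77 for Sgk1. Background subtraction turned Scnn1b in loop of Henle-like cells to 0.432 over P0 and 0.609 over E17.5. Scnn1g in connecting tubule-like cells, transplant over E17.5, turned to 0.960 at resolution 0.8 and 0.961 with list genes kept. In intercalated-like cells with at most 4 UMIs of S100g, Aqp2 and Aqp3, chosen after seeing the data, transplant over P0 was 1.93 for Scnn1b and 0.221 for Sgk1 (turned). Thinned to 5000 UMIs, 86.3% of transplant and 57.8% of P0 principal-like cells held a Scnn1b UMI. A setting that left under 10 cells in a class gave no value. No paired analysis was possible because each group is 1 library. Small cell numbers limit the E15.5 distal classes.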

Other observations

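A cluster without a class name, led by Spint4, Hoxa10 and Aldh1a3, held 9 transplant cells, against 9, 17 and 95 at E15.5, E17.5 and P0. At P0 it had Scnn1b at 213 CPM and Scnn1g at 97.8 CPM, levels near those of principal-like cells (204 and 98.6 CPM), and Hsd11b2 at 81.4 CPM. It had no Scnn1a UMI among 321 subunit UMIs (upper bound of the share 1.14%) and no Nr3c2 UMI in 1032410 UMIs, against 100 Scnn1a and 30 Nr3c2 UMIs in 1623040 of principal-like cells. Aqp2 was at 597 CPM in it and Calb1 at 619.9 CPM. A second unnamed cluster, led by Gdf15 and Igfbp2, had a Scnn1a share of 3.70%, 4.79% and 2.82% in the in situ libraries by age.

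In transplant loop of Henle-like cells Scnn1a was at 21.5 CPM in the 173 cells with at least 5 Klk1 UMIs, against 4.66 CPM in the 198 with none, with median UMIs of 18234 and 7295. Sgk1 in loop of Henle-like cells was at 9.02 CPM in the transplant. In situ it had 0 UMIs in 506164 in the youngest library, then 9.37 CPM and 48.7 CPM in the older pair.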
